A study of Mus musculus with 15 samples.

Results

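The transcripts of 10 inflammatory cytokines and chemokines were followed through 15 RNA-seq libraries of lineage-negative bone marrow cells. The genes were chosen by name, as Il1b, Il1a, Tnf, Il6, Ccl2, Ccl3, Ccl4, Cxcl2, Cxcl10 and Tgfb1, and each was matched to 1 of the 45706 Ensembl identifiers of the count table. The cells came from bone marrow of secondary recipients, mice that had been irradiated and had received stem and progenitor cells in serial transplantation. The marrow cells were depleted of cells with lineage markers on magnetic columns. There were 3 libraries from WT cells, 4 from Puma-/- cells, which lack the apoptosis gene Puma, 4 from G3 mTerc-/-Puma+/+ cells, which are the third generation without the telomerase RNA and keep Puma, and 4 labelled G3 mTerc-/-Puma-/-, the combined knockout. Both deletions are constitutive, and all donors were of the C57BL/6J background. All libraries, WT included, passed through the same irradiation and transplantation, so none shows the level of these genes in marrow that was not transplanted. Cells that remained from the recipient can be present as well.

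Interleukin 1, TNF and IL-6 are secreted signals that innate immune cells make within a short time after damage or infection. They act through receptors that lead to NF-kB, AP-1 and STAT proteins, and chemokines such as CCL2, CCL3, CCL4, CXCL2 and CXCL10 draw monocytes, lymphocytes or neutrophils to the site. TGF-beta 1 is an opposite kind of signal in marrow, since it restrains the cycling of stem cells, and it is made as a latent protein that must be activated.

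The libraries held 102790519 to 158367059 counts. Values are normalized CPM, counts scaled to a common library total with TMM factors over 15 libraries, unless stated otherwise. Puma is listed as Bbc3, whose level was 5.04 to 6.83 in Puma-/- and 9.71 to 23.6 in WT, but 13.5 to 17.1 in all 4 libraries labelled G3 mTerc-/-Puma-/-. The lower level of the Puma-/- libraries was therefore absent from them, and the group is named here by its label only. Terc, the telomerase RNA, had 0 or 1 count in each mTerc-/- library and 4 to 17 counts in the others. The Y-linked gene Ddx3y was at most 0.0448 in Puma-/-, 21.3 to 43.2 in WT, 42.9 to 48.3 in G3 mTerc-/-Puma+/+ and 2.88 to 46.0 in the labelled double mutants that were fitted. Of 5 genes that mark sex, 4 passed the test in Puma-/- against WT, 4 in the labelled double mutants against Puma-/-, 4 in the interaction and 2 between both G3 mTerc-/- groups. The makeup by sex thus differed in these 4 comparisons, and its part in the values below was not tested. Among those labelled G3 mTerc-/-Puma-/-, replicate 2 stood apart. Its Csf1r, the receptor of the macrophage growth factor, was 26.0 against at least 239.5 in the other 14 libraries, and its hemoglobin gene Hba-a1 was 416 against at most 67.7. Fits and tests left this library out, and its values are given beside the others. The heatmaps of the study do not show this library, while its statistics section reports no exclusion of data. Nothing in the labels says that the replicates came from separate mice, and p-values then measure the spread between these libraries only.

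All 10 genes are protein-coding. GENCODE vM21 places Il1b (ENSMUSG00000027398) at chr2:129364570-129371139 on the minus strand, Il1a (ENSMUSG00000027399) at chr2:129299610-129309972 on the minus strand, and Tnf (ENSMUSG00000024401) at chr17:35199381-35202007 on the minus strand. Of the genes on chromosome 5, it has Il6 (ENSMUSG00000025746) at chr5:30013114-30019981 on the plus strand, Cxcl2 (ENSMUSG00000058427) at chr5:90903871-90905938 on the plus strand, and Cxcl10 (ENSMUSG00000034855) at chr5:92346638-92348889 on the minus strand. The CC chemokine genes are Ccl2 (ENSMUSG00000035385) at chr11:82035571-82037453 on the plus strand, Ccl3 (ENSMUSG00000000982) at chr11:83647844-83649355 on the minus strand, and Ccl4 (ENSMUSG00000018930) at chr11:83662584-83664683 on the plus strand, and Tgfb1 is listed as ENSMUSG00000002603 at chr7:25687002-25705077 on the plus strand. Il1a and Il1b are 54.6 kb apart on chromosome 2, and Ccl3 and Ccl4 are 13.2 kb apart on chromosome 11 of GRCm38. RefSeq promoter windows were matched by symbol for 8 of the 10 genes, all but Ccl2 and Ccl4. The sequences of 5 genes are shown. Il1b, Il6 and Ccl3 are 3 of the 4 members with the largest fitted differences between the labelled double mutants and G3 mTerc-/-Puma+/+, and Cxcl2 and Cxcl10 have NF-kB matches that can be set beside that of Il6. Bases run 5′ to 3′ on the strand of the gene from 150 bases before the RefSeq start to the base before it, except for Cxcl2, which ends 29 bases before that start because the GENCODE transcript begins upstream. Capitals mark matches to the NF-kB consensus, AP-1 (TGANTCA), C/EBP (TTGCNNAA) and the TATA box (TATAAA), on either strand. The build is GRCm38.p6.
Il1b, chr2:129371140-129371289, minus strand: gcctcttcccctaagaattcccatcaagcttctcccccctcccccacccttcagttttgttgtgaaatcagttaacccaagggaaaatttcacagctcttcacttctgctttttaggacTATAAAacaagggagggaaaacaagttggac
Il6, chr5:30012964-30013113, plus strand: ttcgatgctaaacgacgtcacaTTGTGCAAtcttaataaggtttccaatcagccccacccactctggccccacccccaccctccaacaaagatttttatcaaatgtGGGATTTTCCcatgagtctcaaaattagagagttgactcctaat
Ccl3, chr11:83649379-83649528, minus strand: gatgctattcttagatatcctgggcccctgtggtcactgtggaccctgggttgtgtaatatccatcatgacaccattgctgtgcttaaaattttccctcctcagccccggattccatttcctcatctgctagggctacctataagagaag
Cxcl2, chr5:90903749-90903870, plus strand: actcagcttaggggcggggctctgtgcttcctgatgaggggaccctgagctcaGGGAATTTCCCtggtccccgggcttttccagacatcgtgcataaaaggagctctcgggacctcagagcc
Cxcl10, chr5:92348890-92349039, minus strand: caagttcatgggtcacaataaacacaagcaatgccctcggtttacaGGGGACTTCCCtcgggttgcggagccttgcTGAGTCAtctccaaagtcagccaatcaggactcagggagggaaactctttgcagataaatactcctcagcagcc

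The 250 bases before the start held an NF-kB match in 4 of the 8 windows (Il6, Cxcl2, Cxcl10 and Tgfb1), beside 7.25% of all 32851 promoter windows. In Il6 the match ran from 44 to 35 bases before the start and in Cxcl2 from 97 bases before it. Cxcl10 had 1 further match outside the stretch shown. The AP-1 letters were found in Il1a, Il6 and Cxcl10, beside 6.75% of all windows. A TATAAA box was found in Il1a, Il1b and Tnf, beside 12.4% of all windows. The interferon response motif was found in Cxcl10, which is known as an interferon target, and in 2.98% of all windows, while C/EBP was found in Il6 and in 9.56%. Some matches of 1 motif overlapped each other, in Cxcl2 and Cxcl10. The letters of the cAMP response element (TGACGTCA, in 1.55% of windows) and of the serum response element (1.47%) were in none of the 8 windows, and GGGCGG was in 3 (Cxcl2, Tgfb1 and Tnf), beside 32.7%. These are matches of letters, and binding was not measured.

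Every member was detected in every library, with at least 20 counts. Per length (RPKM, normalized CPM per kilobase of exons), the median over 15 libraries was highest for Ccl3 (150.1, range 34.1 to 244), followed by Tgfb1 (68.4, range 45.7 to 82.0) and Ccl4 (49.1, range 14.8 to 122). Tnf was next at 19.2 RPKM (11.4 to 28.8). The remaining genes were lower, at 3.30 RPKM for Ccl2, 1.83 for Il6, 1.29 for Cxcl10, 1.08 for Cxcl2, 0.78 for Il1b and 0.16 for Il1a. The ranges of neighbours in this order overlapped in every case, also for Tnf and Ccl2 (1.34 to 13.1 RPKM for Ccl2). The chemokine that attracts macrophages and T cells and the latent growth factor thus had the largest transcript levels, and both interleukin 1 genes the smallest. Within a genotype, the spread of log2 CPM was below the gene-wide median of 0.237 for Tgfb1 alone (0.128). It was above the median for the other 9 members and exceeded that of 97.6% of all genes tested for Cxcl2 (1.08) and of 96.1% for Ccl2 (0.935).

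**Figure D1:**
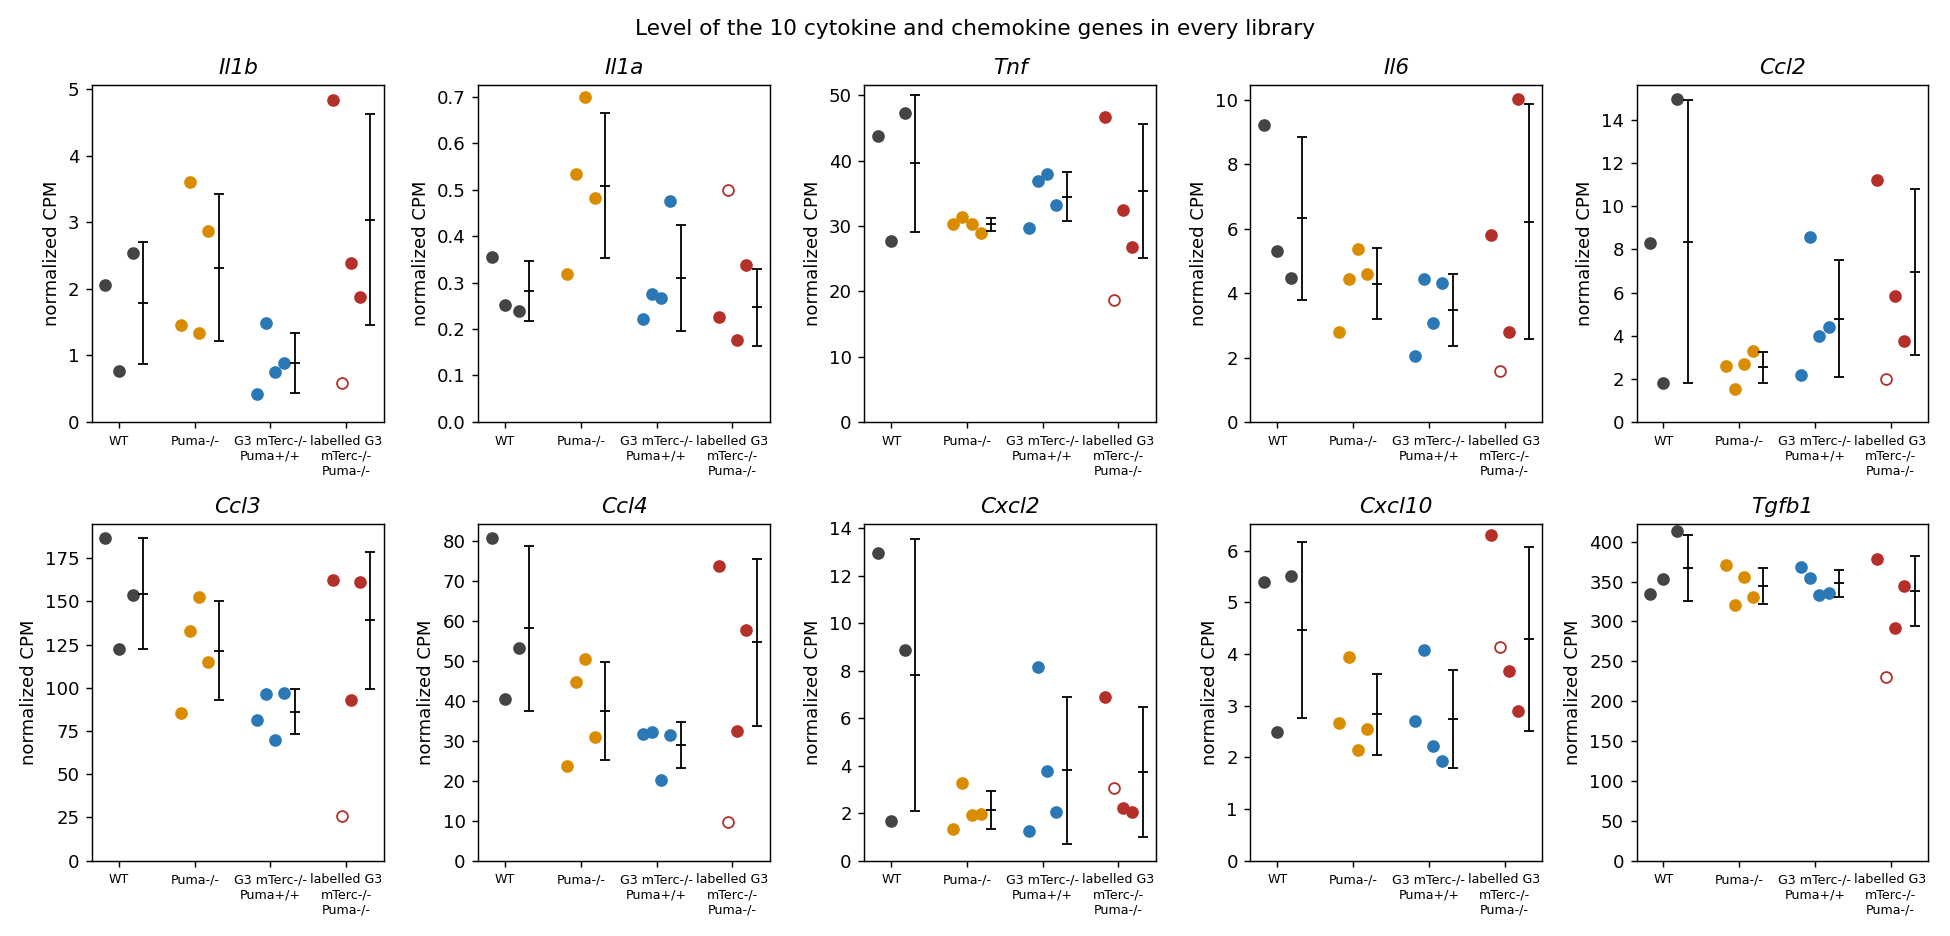
Normalized CPM (vertical axis, from 0) of the 10 genes in each library, by genotype; the bar to the right of each group is the mean ± SD and the open circle is replicate 2 of the labelled double mutants, which is left out of that mean. Il1b was 0.426 to 1.49 in G3 mTerc-/-Puma+/+ and 1.88 to 4.84 in the 3 labelled double mutants, and Tgfb1 varied little.

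Il1b encodes interleukin 1 beta, which is made as a precursor and released after cleavage by caspase 1. Its level was 2.06, 0.773 and 2.53 in the WT libraries and 1.46, 3.60, 1.34 and 2.88 in the Puma-/- libraries. In G3 mTerc-/-Puma+/+ it was 0.426, 1.49, 0.745 and 0.888, and in the labelled double mutants 4.84, 2.39 and 1.88, with 0.585 in replicate 2. All 3 of these double mutant libraries exceeded every G3 mTerc-/-Puma+/+ library, whereas replicate 2 lay within their range. The fitted log2 difference of 1.78 (SE 0.504) had an unadjusted p of 0.00347 and an adjusted p of 0.322 (edgeR quasi-likelihood, all genes), so that it did not pass, and the exact two-sided permutation test gave p = 0.0571. With DESeq2 the same difference passed (log2 1.79, adjusted p = 0.0231), and over all 15 libraries the edgeR value was 1.46 (unadjusted p = 0.0243, n = 4 and 4). The exact permutation test of Il1b over all 15 libraries gave p = 0.171. Its antisense neighbour Il1bos shares 1.3% of its exonic bases. In bulk samples, fewer cells of a type and less RNA per cell cannot be told apart. No other comparison of Il1b had an unadjusted p under 0.05.

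Il1a, which encodes interleukin 1 alpha, an alarm signal active without cleavage, was measured on 20 to 78 counts per library. It stood at 0.356, 0.251 and 0.239 in WT and at 0.319, 0.534, 0.699 and 0.482 in Puma-/-. The G3 mTerc-/-Puma+/+ libraries had 0.2205, 0.276, 0.268 and 0.4765, and the labelled double mutants 0.227, 0.176 and 0.337, with 0.499 in replicate 2. The highest values thus were in Puma-/-, and groups overlapped in every pair. The log2 difference was 0.85 (SE 0.344, unadjusted p = 0.0275, adjusted p = 0.449, edgeR, exact permutation p = 0.0857) for Puma-/- against WT. It was -1.04 (SE 0.344, unadjusted p = 0.00949, adjusted p = 0.369, edgeR, exact permutation p = 0.0857) for the labelled double mutants against Puma-/-. Against G3 mTerc-/-Puma+/+ it was -0.32 (SE 0.344, adjusted p = 0.968 in the edgeR fit), and it ran from -0.61 without the labelled double mutant replicate 4 to -0.041 without G3 mTerc-/-Puma+/+ replicate 4. Without the labelled double mutant replicate 3 it was -0.14. A transcript on the other strand, Gm14023, shares 11.2% of the Il1a exonic bases, and without a stated strand setting reads of both cannot be told apart.

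Tnf encodes tumor necrosis factor. Its level was 43.8, 27.7 and 47.3 in WT, 30.3, 31.5, 30.3 and 28.9 in Puma-/- and 29.7, 36.9, 38.0 and 33.3 in G3 mTerc-/-Puma+/+. The labelled double mutants had 46.8, 32.5 and 26.8, and replicate 2 had the lowest value of all libraries (18.7). The Puma-/- libraries had a mean of 30.2 ± 1.04 (SD, n = 4), and the wider range of WT enclosed them. The log2 difference between the labelled double mutants and G3 mTerc-/-Puma+/+ was 0.036 (SE 0.187, adjusted p = 0.998 in the edgeR fit), and no comparison of Tnf had an unadjusted p under 0.05.

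Il6, which signals through gp130 to STAT3, was 9.21, 5.31 and 4.46 in WT and 2.78, 4.44, 5.37 and 4.597 in Puma-/-. It was 2.05, 4.44, 3.09 and 4.33 in G3 mTerc-/-Puma+/+ and 5.81, 2.79 and 10.04 in the labelled double mutants, with 1.58 in replicate 2. Thus every G3 mTerc-/-Puma+/+ library was below every WT library (4.44 at most against 4.46 at least), and the labelled double mutants were spread over both. The log2 difference was -0.86 (SE 0.396, unadjusted p = 0.0469, adjusted p = 0.998, edgeR) for G3 mTerc-/-Puma+/+ against WT. The exact permutation test of this pair gave p = 0.114, and without WT replicate 1 the difference was -0.51 (unadjusted p = 0.249). It was 0.84 (SE 0.395, unadjusted p = 0.0527, adjusted p = 0.801, edgeR) for the labelled double mutants against G3 mTerc-/-Puma+/+, and without their replicate 4 it was 0.31.

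Ccl3 and Ccl4 encode CC chemokines that attract monocytes and T cells, and CCL3 also restrains stem cell cycling in culture. Ccl3 was 187, 123 and 154 in WT, 85.4, 133, 153 and 115 in Puma-/- and 81.4, 96.5, 69.8 and 97.2 in G3 mTerc-/-Puma+/+. It was 163, 93.1 and 161 in the labelled double mutants, with 26.1 in replicate 2. The G3 mTerc-/-Puma+/+ libraries were all below the WT libraries, and replicate 3 of the labelled double mutants lay within their range. The log2 difference to WT was -0.84 (SE 0.221, unadjusted p = 0.00204, adjusted p = 0.749, edgeR), with an exact two-sided permutation p = 0.0286, the smallest that 3 against 4 libraries allow. Between the labelled double mutants and G3 mTerc-/-Puma+/+ it was 0.69 (SE 0.221, unadjusted p = 0.00786, adjusted p = 0.457, edgeR), and 0.36 (unadjusted p = 0.372) over all 15 libraries. The exact permutation p of this pair was 0.0857, and 0.971 over all 15 libraries.

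Ccl4 was 80.7, 40.4 and 53.1 in WT, 23.8, 44.8, 50.4 and 31.0 in Puma-/- and 31.8, 32.1, 20.2 and 31.4 in G3 mTerc-/-Puma+/+. The labelled double mutants had 73.8, 32.4 and 57.5, with 9.79 in replicate 2. The lowest of these 3 was 32.41 and the highest of G3 mTerc-/-Puma+/+ was 32.09. The groups did not overlap, by a narrow margin. The log2 difference was 0.92 (SE 0.310, unadjusted p = 0.0106, adjusted p = 0.495, edgeR), and the exact permutation p was 0.0286. Over all 15 libraries the fitted value was 0.59 (unadjusted p = 0.209, edgeR) and the exact permutation p was 0.714. Against WT the G3 mTerc-/-Puma+/+ value was -1.01 (SE 0.311, unadjusted p = 0.00604, adjusted p = 0.980, edgeR; exact p = 0.0286).

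Ccl2 encodes the monocyte chemokine that acts on CCR2. Its level was 8.31, 1.825 and 14.96 in WT and 2.59, 1.53, 2.69 and 3.30 in Puma-/-. It was 2.17, 8.59, 3.97 and 4.42 in G3 mTerc-/-Puma+/+ and 11.2, 5.84 and 3.76 in the labelled double mutants, with 2.01 in replicate 2. High and low libraries occurred side by side within each group but Puma-/-, where all were low. All 3 labelled double mutants exceeded all Puma-/- libraries (log2 1.46, SE 0.586, unadjusted p = 0.0265, adjusted p = 0.519, edgeR; exact permutation p = 0.0286), and Puma-/- was below WT by a log2 difference of -1.73 (SE 0.588, unadjusted p = 0.0112, adjusted p = 0.409). WT replicate 2 lay within the range of Puma-/-, and the exact permutation p of the latter difference was 0.2. Without WT replicate 3 the latter difference was -1.003 (unadjusted p = 0.117, edgeR). Without the labelled double mutant replicate 1 the former was 0.92 (unadjusted p = 0.164). Against G3 mTerc-/-Puma+/+ the labelled double mutants differed by 0.54 (SE 0.582, adjusted p = 0.970 in the edgeR fit), and by 0.0043 without their replicate 1, 0.84 without their replicate 4, and 0.31 or 0.98 without replicate 1 or 2 of G3 mTerc-/-Puma+/+.

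Cxcl2 attracts neutrophils through CXCR2. It was 12.96, 1.67 and 8.85 in WT, 1.34, 3.27, 1.94 and 1.98 in Puma-/-, 1.24, 8.17, 3.78 and 2.06 in G3 mTerc-/-Puma+/+ and 6.89, 2.23 and 2.06 in the labelled double mutants, with 3.06 in replicate 2. The 4 highest libraries were WT replicates 1 and 3, G3 mTerc-/-Puma+/+ replicate 2 and the labelled double mutant replicate 1. WT replicate 2 lay within the range of Puma-/-. For Puma-/- against WT the log2 difference was -1.87 (SE 0.692, unadjusted p = 0.0174, adjusted p = 0.424, edgeR), with an exact permutation p of 0.2. For the labelled double mutants against G3 mTerc-/-Puma+/+ it was -0.028 (SE 0.690, adjusted p = 0.998, edgeR). The sign of the latter turned when single libraries were left out (-0.83 to 0.66).

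Cxcl10, which attracts T cells through CXCR3, was 5.40, 2.495 and 5.50 in WT and 2.67, 3.95, 2.15 and 2.56 in Puma-/-. It was 2.71, 4.09, 2.23 and 1.93 in G3 mTerc-/-Puma+/+ and 6.30, 3.68 and 2.90 in the labelled double mutants, with 4.14 in replicate 2. The groups overlapped, and the log2 difference between the latter 2 was 0.65 (SE 0.346, unadjusted p = 0.0826, adjusted p = 0.836, edgeR). It was 0.26 without the labelled double mutant replicate 1. On the other strand Art3 shares 5.9% of the Cxcl10 exonic bases.

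Tgfb1 varied least. It was 334, 353 and 413.5 in WT, 371, 321, 356 and 331 in Puma-/- and 368, 354, 333 and 336 in G3 mTerc-/-Puma+/+. The labelled double mutants had 379, 292 and 345, with 230.2 in replicate 2. No pair of genotypes was apart, and the log2 difference between the labelled double mutants and G3 mTerc-/-Puma+/+ was -0.038 (SE 0.0989, adjusted p = 0.994, edgeR).

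Across the members, the same libraries were often high. WT replicates 1 and 3 each had the highest value for 3 members, and the labelled double mutant replicate 1 was among the 4 highest libraries for 9 of 10. Replicate 2 of this label was the lowest for 5 members, Ccl3, Ccl4, Il6, Tgfb1 and Tnf. A list of 13 immediate early genes, which are switched on within minutes of a stimulus, stood highest in the libraries in which Cxcl2 and Ccl2 were high. The mean log2 CPM of that list was 7.36 in the labelled double mutant replicate 1, 7.35 and 7.25 in WT replicates 1 and 3, 6.54 in G3 mTerc-/-Puma+/+ replicate 2 and 5.19 to 6.45 in the other 11. These 4 libraries were the 4 highest for Cxcl2 and for Ccl2, 3 of them were among the 4 highest for Tnf, Ccl3, Ccl4 and Cxcl10, 2 for Il1b, Il6 and Tgfb1, and 0 for Il1a. Atf3, a gene of that list, ran from 58.5 to 145 in these 4 libraries and was at most 15.5 in the rest. With the mean level of the list as a covariate, added after the data were seen, the value for Cxcl2 in Puma-/- against WT was -0.40 (unadjusted p = 0.190) and for Ccl2 -0.51 (unadjusted p = 0.300). Il1b between the labelled double mutants and G3 mTerc-/-Puma+/+ was 1.29 (unadjusted p = 0.00101). For the same pair Cxcl2 moved from -0.028 to -0.72 (unadjusted p = 0.0193) and Ccl2 from 0.54 to 0.019 (unadjusted p = 0.964), and the members with an unadjusted p under 0.05 numbered 4 in place of 3. By genotype, 0 of the 13 genes passed in any of the 5 comparisons (edgeR). For G3 mTerc-/-Puma+/+ against WT 0 were higher (median log2 -0.85), beside 54.5% of all genes. There 9 had an unadjusted p under 0.05, beside 3.86% of all genes. In the interaction 13 were higher (median 1.33), beside 48.8%, and 7 of them were at that p, beside 4.93%. For Puma-/- against WT 0 were higher (-0.84), beside 50.9%, and 5 were at that p, beside 10.1%. The labelled double mutants had 13 higher against G3 mTerc-/-Puma+/+ (0.44), beside 46.3%, and 2 of them were at that p, beside 6.22%. Against Puma-/- they had 11 higher (0.43), beside 52.05%, and 0 at that p, beside 8.42%. The cause of this level was not tested.

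**Figure D2:**
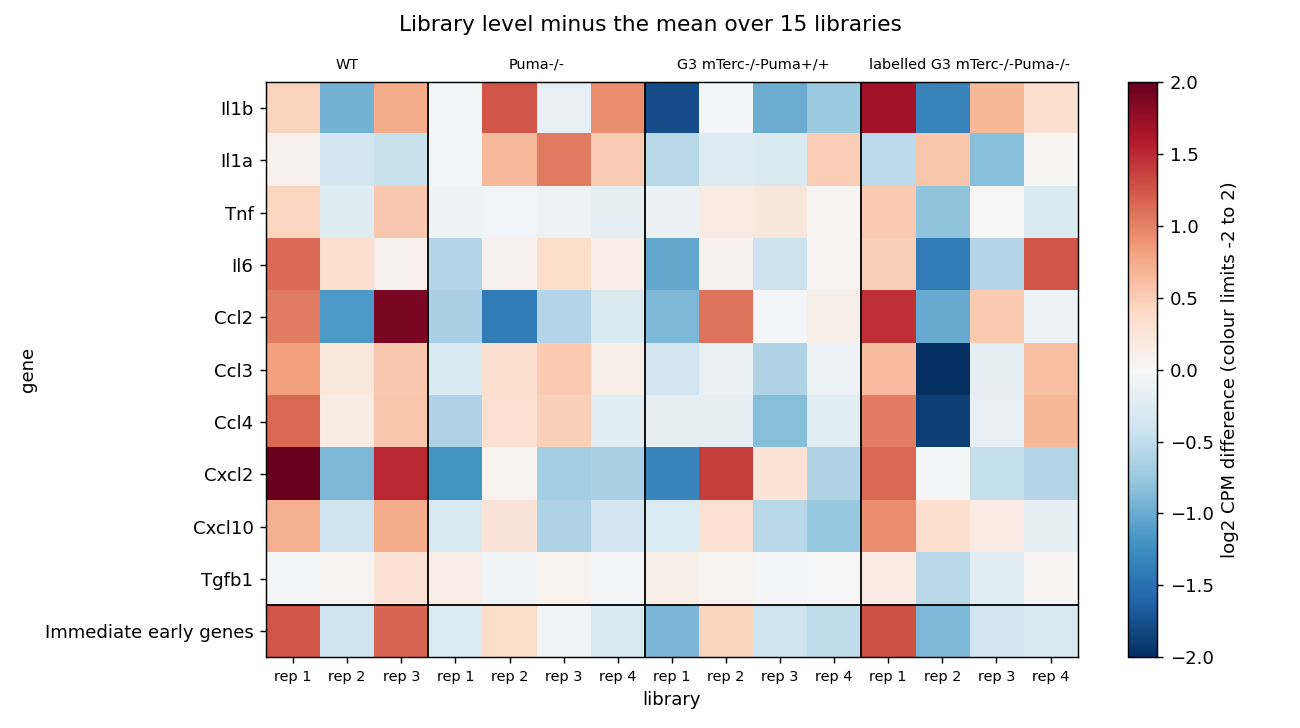
Log2 CPM of each member (rows) and of the mean of 13 immediate early genes (lowest row) in each library (columns), as the difference from its mean over 15 libraries; red is higher and blue lower, with colours limited at 2. Cxcl2 and Ccl2 are red in the 4 libraries in which the immediate early genes are highest.

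Over all genes, 18983 were tested, and all 10 members were among them. Between the labelled double mutants and G3 mTerc-/-Puma+/+, 0 members passed an adjusted p of 0.05 (edgeR), as did 0.0738% of all genes. At an unadjusted p under 0.05 there were 3 members, Il1b, Ccl3 and Ccl4, beside 6.22% of all genes, and 2, Il1b and Ccl4, did not overlap, beside 5.56%. The members' median log2 difference was 0.59, with 7 of 10 higher, and that of all genes was -0.015, with 46.3% higher. The median was 0.13 without the labelled double mutant replicate 1, 0.31 over all 15 libraries and 0.15 with the immediate early covariate. The 3 members were 5 without G3 mTerc-/-Puma+/+ replicate 2 and 1 over all 15 libraries. For G3 mTerc-/-Puma+/+ against WT, 0 members passed (0.0369% of genes), 3 had an unadjusted p under 0.05 (Ccl3, Ccl4 and Il6, all lower, beside 3.86%) and 3 did not overlap (the same genes, beside 4.07%). Their median was -0.82, with 1 of 10 higher, beside 0.018 and 54.5% for all genes, and -0.011 with the immediate early covariate. The 3 members were 7 without WT replicate 2, 6 without G3 mTerc-/-Puma+/+ replicate 2, 1 with that covariate and 0 over all 15 libraries. In that last fit the median remained -0.82, and the added library belongs to neither group of this comparison. For the labelled double mutants against Puma-/-, 0 members passed (0.306%), 2 had an unadjusted p under 0.05 (Ccl2 and Il1a, beside 8.42%) and 1 did not overlap (Ccl2, beside 9.57%). The median of the 10 members was 0.46, with 8 of 10 higher, beside 0.0092 and 52.05% for all genes. That median was 0.037 without the labelled double mutant replicate 1, 0.14 over all 15 libraries and 0.20 with the immediate early covariate. The 2 members were 1 without the labelled double mutant replicate 1, 4 without its replicate 3 and 0 over all 15 libraries. For Puma-/- against WT, 0 members passed (0.079%), 3 had an unadjusted p under 0.05 (Ccl2, Il1a and Cxcl2, beside 10.1%) and 0 were without overlap (9.7%). The median of the 10 members was -0.47, with 2 of 10 higher, beside 0.0048 and 50.9% for all genes, and -0.13 with the immediate early covariate. The 3 members were 5 without WT replicate 2, 1 without WT replicate 3 and 6 with DESeq2. These comparisons share libraries, and the members were chosen with earlier results known.

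The interaction, the difference of the G3 mTerc-/- comparison of Puma from the comparison of Puma-/- against WT, asks whether the labelled Puma status went with another difference in G3 mTerc-/- than in mTerc+/+ cells. At an adjusted p of 0.05, 0 members passed (0.0527% of genes). At an unadjusted p under 0.05 there were 6 members, beside 4.93% of genes. These were Ccl2 (log2 2.26, SE 0.825, unadjusted p = 0.0162), Ccl4 (1.55, SE 0.439, unadjusted p = 0.00346), Il6 (1.40, SE 0.559, unadjusted p = 0.0260), Cxcl10 (1.31, SE 0.489, unadjusted p = 0.0188), Ccl3 (1.03, SE 0.313, unadjusted p = 0.00542) and Il1a (-1.17, SE 0.486, unadjusted p = 0.0308), all from edgeR. The lowest adjusted p was 0.650, for Ccl4. The count of 6 was 3 without WT replicate 3, without the labelled double mutant replicate 1 or with the immediate early level as a covariate, and 2 over all 15 libraries. It was 8 without WT replicate 2, without G3 mTerc-/-Puma+/+ replicate 2 or with no count filter, and 7 with DESeq2. The members' median was 1.35, with 9 of 10 higher, beside -0.0060 and 48.8% for all genes, and it was 0.25 with the immediate early covariate. Without the labelled double mutant replicate 4 the value of Il6 was 0.87 (unadjusted p = 0.121).

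**Figure D3:**
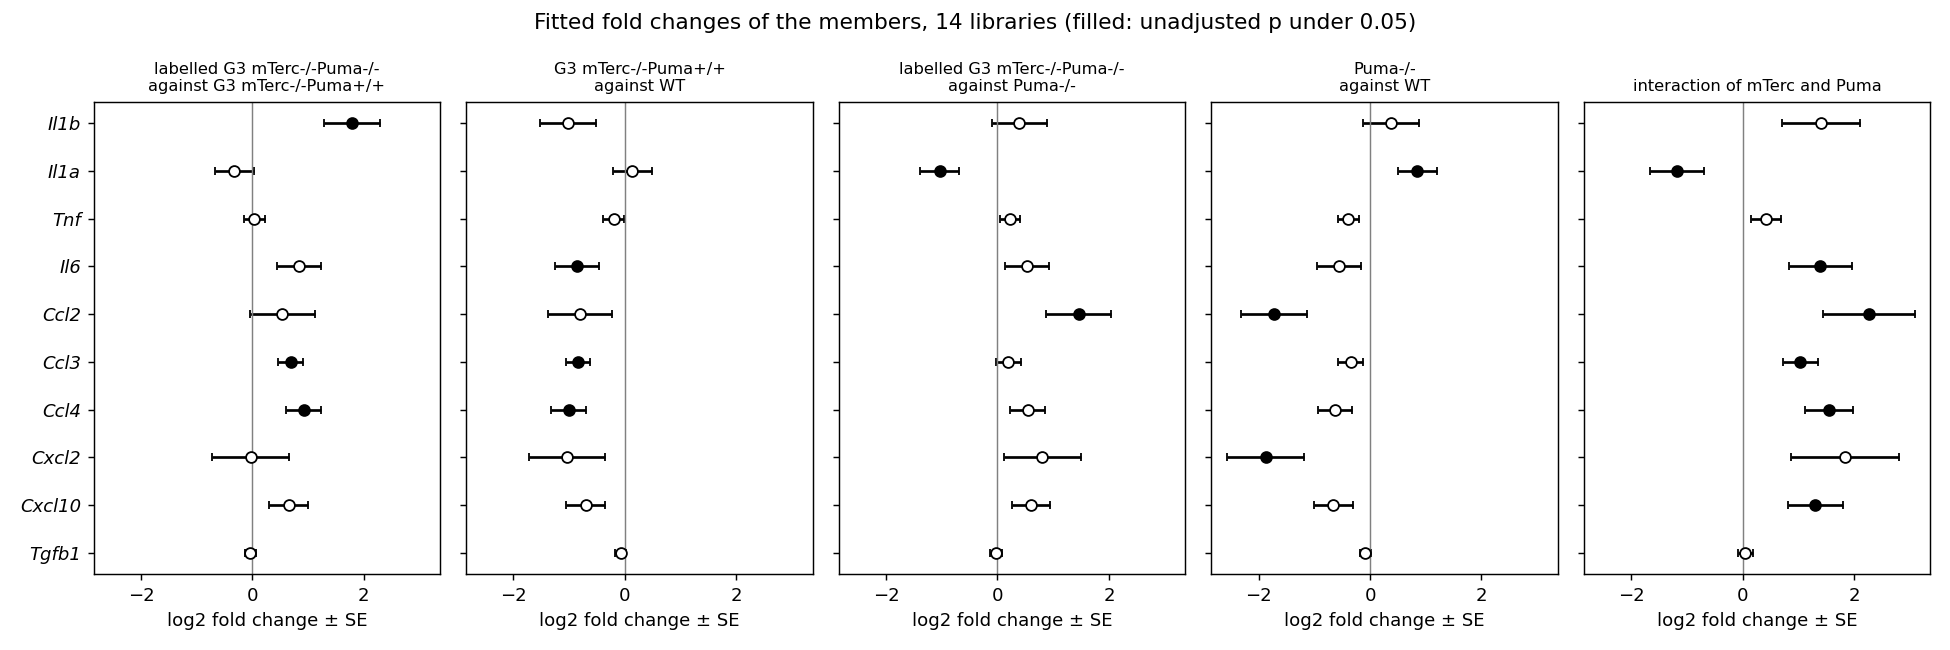
Fitted log2 fold changes ± SE (horizontal axis) of the 10 members in the 4 comparisons and in the interaction, from the edgeR fit of 14 libraries; filled points have an unadjusted p under 0.05 and none passed after adjustment. In G3 mTerc-/-Puma+/+ against WT 1 of 10 points lies above 0, and in Puma-/- against WT 2 of 10.

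By their pattern over 14 libraries, Ccl3 and Ccl4 were each other's nearest gene (Pearson r of log2 CPM 0.952, as a description without a test). For Il6 the nearest gene was Ccl3 (r = 0.847), and for Ccl3 Il6 stood at rank 3. The nearest to Cxcl2 were Zfand5 (r = 0.947), Cd69 (0.941), an early activation marker of lymphocytes, and Dusp1 (0.940), an immediate early phosphatase. Ccl2 was nearest to Cd14 (0.940), the monocyte receptor of bacterial lipopolysaccharide, Ranbp9 (0.935) and Gla (0.921). The next to Cxcl10 were Nfkbiz (0.938), Dusp5 (0.924) and Mir22hg (0.921), and to Tnf Tob1 (0.938), Tgif1 (0.918) and Cdkn2aip (0.915). Hlx (0.925), Pkmyt1 (0.908) and Vav1 (0.907) were nearest to Tgfb1. The remaining nearest genes were Plcxd1, Slit1 and AI182371 for Il1b (0.891 to 0.848), Akap5, Ccnjl and Gp1bb for Il1a (0.888 to 0.869), Gm9157 and D830025C05Rik for Il6, Dbndd2 for Ccl3, and Igkv4-53 and Dbndd2 for Ccl4. All points share the same 14 libraries. Over all 15 libraries some r were lower. They were 0.224 for Ccl3 with Dbndd2, 0.372 for Ccl4 with Dbndd2, 0.4975 for Ccl4 with Igkv4-53 and 0.601 for Tnf with Tob1. Others stayed high, such as 0.9635 for Ccl3 with Ccl4, 0.944 for Ccl2 with Cd14 and 0.972 for Tgfb1 with Hlx.

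**Figure D4:**
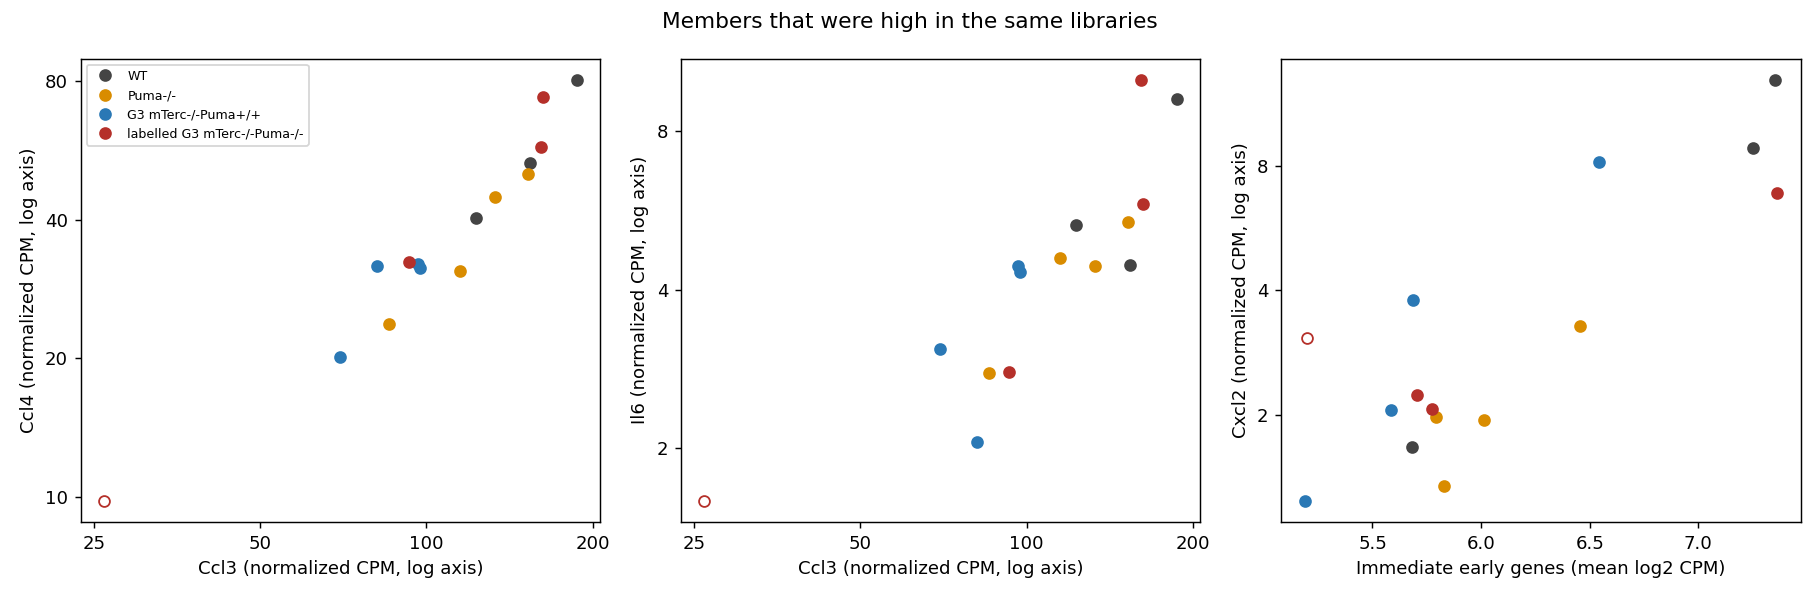
Normalized CPM on log axes of Ccl4 and of Il6 against Ccl3 and of Cxcl2 against the mean log2 CPM of 13 immediate early genes (linear axis), with 1 point per library and the open circle for replicate 2 of the labelled double mutants. Ccl4 and Ccl3 lie along 1 line from the lowest library (9.79 and 26.1) to WT replicate 1 (80.7 and 187).

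Lists of the surrounding pathway were chosen for role, with earlier results of these data known, and gave 2 calls over the 5 comparisons. Both were among the 20 other chemokines tested, for the labelled double mutants against Puma-/-, where 0.306% of all genes were called. Pf4 (ENSMUSG00000029373) and Ppbp (ENSMUSG00000029372), platelet chemokines of the CXC class, were lower in the labelled double mutants than in Puma-/-. Pf4 was 63.5 to 117 in Puma-/- and 15.2 to 18.7 in these 3 libraries (log2 -2.22, SE 0.308, adjusted p = 0.00594, edgeR). Ppbp was 44.8 to 84.4 and 10.6 to 15.6 (log2 -2.01, SE 0.385, adjusted p = 0.0476), and both remained called over all 15 libraries. Both were also higher in Puma-/- than in WT, by log2 1.24 and 1.065 (adjusted p = 0.3055 and 0.412, edgeR). Between the labelled double mutants and G3 mTerc-/-Puma+/+ they differed by -0.59 and -0.70 (adjusted p = 0.824 and 0.834, edgeR). The megakaryocyte markers moved with Pf4 and Ppbp. The summed level of that list of 6 genes, Pf4 included, was 293 to 477 in Puma-/- and 113 to 168 in the labelled double mutants. In WT it was 123 to 263 and in G3 mTerc-/-Puma+/+ 146 to 197. The other called members of the list were Gp1bb, Gp9 and Gp6. The part of the megakaryocyte markers in the result was not tested.

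In the 27 other cytokines, 14 receptors, 13 decoys and inhibitors, 16 genes of maturation and release, 22 signal transducers and 8 genes of the TGF-beta response, 0 genes passed. At an unadjusted p under 0.05 for the labelled double mutants against G3 mTerc-/-Puma+/+ there were 3 of the other chemokines, 4 of the other cytokines, 1 receptor, 1 decoy or inhibitor and 3 genes of the TGF-beta response, all higher, beside the same 6.22% of all genes. The highest levels per length were found in Ccl9 (median 68.5 RPKM), Ccl5 (65.1) and Ccl6 (37.2) among chemokines, in Mif (259), Osm (14.1) and Ltb (13.2) among cytokines, and in Tnfrsf1a (70.9), Ccr2 (50.6) and Tnfrsf1b (36.1) among receptors. Those of the decoys and inhibitors were Zfp36 (137.6), Nfkbia (63.6) and Sigirr (12.3), of which Zfp36 destabilizes cytokine mRNA and Nfkbia holds NF-kB in the cytoplasm. Gsdmd (44.7), Casp1 (43.7) and Pycard (31.1) lead maturation and release, Irak1 (36.6), Myd88 (25.8) and Jak1 (25) the transducers, and Tgfbi (54.1), Id2 (28.5) and Id1 (12.5) the TGF-beta response. Ccr2 and Tnfrsf1a, the receptors of CCL2 and TNF, were thus expressed at higher levels per length than the ligand genes.

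Marker genes of other cells were compared with the members, since the fraction is mixed. Monocyte markers (10 genes, summed normalized CPM) ran from 4643 to 6305 in G3 mTerc-/-Puma+/+ and from 5333 to 7132 in the 3 labelled double mutants, neutrophil markers (10 genes) from 1343 to 2310 and from 1589 to 3672, and macrophage markers (10 genes) from 142 to 262 and from 244 to 352. B cell markers (9 genes) ran from 48.6 to 61.5 and from 76.2 to 131.5, without overlap, and Igll1, a gene of the pre-B cell receptor, rose (log2 2.95, adjusted p = 0.0393, edgeR). Dendritic cell markers (8 genes) ran from 221 to 425 and from 452.5 to 498, also without overlap. Replicate 2 of the labelled double mutants had 112 for dendritic cell, 71.5 for B cell, 1568 for monocyte, 4848 for neutrophil and 328 for macrophage markers. Its dendritic cell sum was below all G3 mTerc-/-Puma+/+ libraries, so that with it these groups overlap. Erythroid markers (8 genes) ran from 236 to 269.6 in G3 mTerc-/-Puma+/+ and from 263 to 421.5 in the 3 labelled double mutants, with 1705 in replicate 2. All 8 had higher fitted values, beside 46.3% of all genes, with a median log2 difference of 1.15. An unadjusted p under 0.05 was found for 4, beside 6.22% of all genes, and 0 passed, beside 0.0738%. Megakaryocyte markers ran from 146 to 197 and from 113 to 168, with 0 of 6 higher beside the same 46.3%, a median of -0.60 and 0 passing. Basophil and mast cell markers (8 genes) ran from 1264 to 2328 and from 1301 to 2577, and their highest value among the labelled double mutants was in replicate 4, in which Il6 was highest. In other groups the 2 did not rank alike. WT replicate 1, second for Il6 (9.21), had a sum of 1961, and Puma-/- replicate 3 had 3898 with an Il6 of 5.37. No list had a gene at 0 in these libraries apart from basophil and mast cell markers, with at most 1. Early granulocyte genes such as Mpo and Elane had the highest levels of all lists, and no gene of that list was at 0 in any library. The part of these cells in the members' differences was not tested.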

How the data were processed

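RNA was measured by poly(A) stranded, paired-end sequencing in 15 libraries. The authors deposited whole-number read counts per Ensembl gene, made with Trimmomatic 0.38 and STAR 2.5.2b on GRCm38 (mm10), as the submitters' processing notes name them. The strand setting and annotation release were not given in the sources used here. Symbols and exon lengths come from GENCODE vM21.

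Counts of 14 libraries, without replicate 2 labelled G3 mTerc-/-Puma-/-, were fitted in 1 model of 4 genotypes with edgeR 4.0.16 (R 4.3.3, TMM, filterByExpr, quasi-likelihood test, Benjamini-Hochberg adjustment, threshold 0.05), with a common biological coefficient of variation of 0.251. Log2 CPM used a prior count of 2. TMM factors were 0.926 to 1.07. The exact test counts the arrangements of libraries whose absolute difference of mean log2 CPM is at least as large. With 3 against 4 libraries its smallest p is 0.0286, and a doubled one-sided p could not go below 0.0571. Alternatives were all 15 libraries, library size alone, DESeq2 1.42.0, limma-voom (limma 3.58.1, the tool the study names), no filter, at least 50 counts in 3 libraries, the compared genotypes alone, the replicate number as a block, leaving out each library, and an immediate early covariate chosen after seeing the data. Code was tested on simulated data. Some marker results are not reported here.

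The members and lists were chosen with earlier results of these data known. Named are all members (those with an unadjusted p under 0.05 outside the comparison of both G3 mTerc-/- groups), each list's called genes and its 3 highest per length, and the 3 genes nearest to each member by Pearson r. Atf3, Mpo, Elane and the check genes Csf1r and Hba-a1 were named after their values were seen.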

Additional observations from a re-analysis of the deposited data

Results flagged for a closer look

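Ccl4 in G3 mTerc-/-Puma+/+ replicate 3 was 20.2 normalized CPM, below the other 3 libraries of its group, which lay between 31.4 and 32.1. The gap divided by the range was 0.940, above Dixon's 95% critical value for 4 libraries. It was 1 of 30 groups of 4 libraries tested, and chance alone marks about 5% of such groups.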

How the results depend on the processing

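Of 24 fitted differences named in the report, 20 kept their sign in every alternative run and 4 did not, all 4 between the labelled double mutants and G3 mTerc-/-Puma+/+. Over all 15 libraries Il1a was 0.000118 and Tnf -0.14. Tnf was -0.016 with the replicate block, -0.19 with the immediate early covariate and -0.22 to 0.20 when single libraries were left out. Cxcl2 was 0.036 with library size alone, 0.18 with limma-voom, 0.11 with the replicate block and -0.83 to 0.66 when single libraries were left out, and Tgfb1 was -0.13 to 0.057. The causes were not tested. Members past an adjusted p of 0.05 numbered 0 in every alternative and comparison except DESeq2 between both G3 mTerc-/- groups, with 1 (Il1b, log2 1.79, adjusted p = 0.0231). Of 40 exact permutation tests, 4 were under 0.05 with 14 libraries and 2 with all 15. Over all genes DESeq2 called 172, 46, 287, 137 and 64 in the 5 comparisons, against 14, 7, 58, 15 and 10 by edgeR. The deviations of same-numbered libraries from their genotype means had a median r of 0.0203 (-0.253 to 0.175, 3 of 18 pairs over 0.1). Differently numbered libraries had a median of -0.0167 (-0.246 to 0.254, 13 of 55 pairs over 0.1). With means of 3 or 4 libraries, these values cannot show whether the numbers pair the samples. With the replicate block 0 members and 13, 6, 21, 12 and 10 genes were called. Il1a, on 20 to 78 counts, is limited most by depth.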
